A study of Mus musculus with 2 samples.

Results

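The 10 genes described here are Mtdh, which encodes astrocyte elevated gene-1 (AEG-1, also called metadherin), Snd1, which encodes its binding partner, and 8 genes of the NF-kB pathway. They were taken from a fixed list by symbol and are 10 of the 19059 genes in the deposited tables, and all 10 were counted in both libraries. The 8 pathway genes are the subunits Nfkb1, Nfkb2, Rela and Relb, the IkB kinase genes Ikbkb and Ikbkg, and the feedback inhibitors Nfkbia and Tnfaip3. The comparison asks whether Snd1 and the NF-kB genes differed between the libraries in the cells where Mtdh differed.

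Liver cells were profiled in 1 library from AEG-1DMAC mice and 1 library from AEG-1fl/fl mice, with a probe-based assay for fixed cells that counts molecules per gene and cell. AEG-1fl/fl mice carry floxed AEG-1 alleles, and AEG-1DMAC mice carry them together with a LysM/Cre allele, in which the Lyz2 locus drives Cre in myeloid cells. Mice of both genotypes were fed HF/HSD, a diet high in fat and sugar, from 7 weeks of age for 20 weeks, and livers were taken at 27 weeks. Y-linked transcripts were counted in both libraries, and whether a library pools several livers is not given in the sources used here.

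With 1 library per genotype no test between genotypes is possible, and no p-value is given. The intervals below are 95% intervals that cover counting error only, and a difference outside them may still be a difference between animals or library preparations.

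The check of the targeted gene went against the labels. Mtdh was counted at a higher level in macrophage-like cells of the library labelled AEG-1DMAC than in those of the library labelled AEG-1fl/fl, so each library is named by its label throughout and every direction below rests on those labels. Whether the labels of the libraries are exchanged was not tested. Where the Mtdh probes lie relative to the floxed part of the gene is not given in the sources used here, and a probe outside the deleted part would check nothing.

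AEG-1 is a scaffold protein of the endoplasmic reticulum membrane, cytoplasm and nucleus. With SND1, a nuclease with Tudor and staphylococcal nuclease domains, it forms a complex linked to RNA processing, and it has been described as a binding partner of the p65 subunit of NF-kB. In the canonical NF-kB pathway, signals from Toll-like receptors, the TNF receptor or the interleukin-1 receptor activate the IkB kinase complex, which marks the inhibitor IkB alpha for degradation and so frees dimers such as p50 with p65 to enter the nucleus. In the non-canonical pathway p100, the product of Nfkb2, is processed to p52, which acts with RELB. NF-kB induces its own inhibitors, among them IkB alpha (Nfkbia) and the ubiquitin-editing enzyme A20 (Tnfaip3), and also Nfkb2 and Relb, and in liver macrophages it is known for driving inflammatory cytokines.

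The libraries held 2571 cells labelled AEG-1DMAC and 3508 labelled AEG-1fl/fl after the cell filter, with median counts per cell of 12746 and 7682, and shared 10 cell barcodes. Cells were assigned to classes by marker genes, which gave 324 and 794 macrophage-like, 253 and 345 endothelial cell-like, 224 and 338 stellate cell-like and 1067 and 1059 hepatocyte-like cells. The smallest class was the neutrophil-like one, with 5 and 44 cells. Levels are given as CPM, counts per 1000000 counts of that class in that library, and the macrophage-like class held 3522826 and 7026256 counts. All 14 macrophage markers were counted in the macrophage-like class of both libraries. The 10 hepatocyte markers made up 6.40% of its counts in the library labelled AEG-1DMAC and 4.21% in the library labelled AEG-1fl/fl, against 12.4% and 11.8% in hepatocyte-like cells. The macrophage-like cells also differed in makeup. Gpnmb, a marker of lipid-associated macrophages, stood at 457 CPM in the library labelled AEG-1DMAC and 2020.3 CPM in the library labelled AEG-1fl/fl, and Clec4f, a Kupffer cell marker, at 2297 and 1700 CPM. Lyz2, the locus that drives Cre, stood at 1508 CPM (1467 to 1549) and 1150 CPM (1125 to 1175). Whether the Lyz2 difference relates to the Cre allele was not tested.

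Promoter sequence is shown for 3 members that NF-kB itself is known to induce and whose promoter windows hold a kappaB motif, the sequence that NF-kB dimers bind. RefSeq promoter windows on GRCm38.p6 were available for 6 of the 10 genes, Snd1, Nfkb2, Rela, Ikbkg, Nfkbia and Tnfaip3, and the 250 bases before each start were searched on both strands for the kappaB consensus. It was present before at least 1 start of 3 of these 6 genes, Nfkb2, Nfkbia and Tnfaip3, and before at least 1 start of 5.67% of all 27025 genes with a window. No match was found in these windows of Snd1, Rela or Ikbkg. The sequences run 5′ to 3′ on the strand of the gene, with the matching bases in capitals. The first is the whole window of Nfkbia, on chr12:55492648-55492897 (minus strand), upstream of the annotated gene, with the match on the opposite strand 20 to 29 bases before the start. The next is a stretch of 30 bases of Tnfaip3 on chr10:19015411-19015440 (minus strand), which GENCODE annotates as intronic to a longer transcript. The last 2 are stretches of 30 bases of Nfkb2, on chr19:46304688-46304717 and chr19:46305695-46305724 (plus strand), both in exons annotated as untranslated.
Nfkbia: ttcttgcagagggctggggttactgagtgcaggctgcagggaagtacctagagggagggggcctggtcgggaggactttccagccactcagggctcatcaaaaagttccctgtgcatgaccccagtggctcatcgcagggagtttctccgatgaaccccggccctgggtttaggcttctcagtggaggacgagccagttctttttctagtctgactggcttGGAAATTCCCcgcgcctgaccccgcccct
Tnfaip3: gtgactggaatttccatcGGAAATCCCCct
Nfkb2, first start: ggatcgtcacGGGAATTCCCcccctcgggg
Nfkb2, last start: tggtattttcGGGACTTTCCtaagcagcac
Nfkb2 had a further match, GGGGCTTTCC, 2 to 11 bases before its first start. A match is a description of the letters and was not tested as a binding site.

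Mtdh (chromosome 15, 34082694 to 34145624, plus strand, GENCODE annotation of GRCm38) was the member that differed most between the libraries in macrophage-like cells. Its level there was 117 CPM (106 to 129, from 413 counts) in the library labelled AEG-1DMAC and 27.3 CPM (23.6 to 31.5, from 192 counts) in the library labelled AEG-1fl/fl. The intervals did not overlap, and the library labelled as the knockout was the high one. The ratio was 4.29-fold (3.61 to 5.12), a log2 ratio of 2.10 (1.85 to 2.36). Among 11650 genes with at least 20 summed counts in these cells it ranked 23 from the highest, and 2.54% of those genes were at least 2-fold higher in the library labelled AEG-1DMAC. With cell classes from clustering in place of marker gates the Mtdh log2 ratio was 0.97, at 81.4 and 41.5 CPM, and that class joined a cluster with 4.79% and 3.03% hepatocyte marker counts and a cluster with 11.8% and 10.3%.

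The other large classes did not show this difference. In endothelial cell-like cells Mtdh stood at 90.2 CPM (77.1 to 105) in the library labelled AEG-1DMAC and 107 CPM (92.6 to 124) in the library labelled AEG-1fl/fl. In stellate cell-like cells it stood at 92.7 CPM (81.0 to 105) and 88.9 CPM (79.5 to 99.0). In hepatocyte-like cells it stood at 60.8 CPM (58.8 to 62.8) and 57.2 CPM (55.3 to 59.1). The log2 ratios were -0.25 (-0.56 to 0.06), 0.06 (-0.19 to 0.31) and 0.09 (0.02 to 0.16). The log2 ratio in macrophage-like cells exceeded that in endothelial cell-like cells by 2.35 (1.964 to 2.74), that in stellate cell-like cells by 2.04 (1.69 to 2.39) and that in hepatocyte-like cells by 2.01 (1.76 to 2.27), so the difference between classes was larger than counting error in each case.

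The small classes gave wide intervals. B cell-like cells had 187 CPM (21 counts) in the library labelled AEG-1DMAC and 101 CPM (29 counts) in the library labelled AEG-1fl/fl, a log2 ratio of 0.89 (0.01 to 1.75). Dendritic cell-like cells had 180 and 113 CPM, T and NK cell-like cells 140 and 98.8 CPM, and cholangiocyte-like cells 85.1 and 77.4 CPM, each with an interval of the ratio that includes no difference. Neutrophil-like cells, another class in which LysM/Cre is known to act, had 0 counts in the library labelled AEG-1DMAC, which allows up to 208 CPM, and 3 counts (21.9 CPM) in the library labelled AEG-1fl/fl, so no difference was detectable at this depth.

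The order of the classes shows the same thing. In the library labelled AEG-1fl/fl the levels ran from dendritic cell-like through endothelial cell-like, B cell-like, T and NK cell-like, stellate cell-like and cholangiocyte-like to hepatocyte-like, macrophage-like and neutrophil-like cells. Neighbours from the first to the sixth place did not differ beyond their intervals, whereas the steps from cholangiocyte-like to hepatocyte-like and from hepatocyte-like to macrophage-like cells did. In the library labelled AEG-1DMAC the macrophage-like cells came after B cell-like, dendritic cell-like and T and NK cell-like cells, and lay above stellate cell-like cells by more than counting error. Hepatocyte-like cells followed cholangiocyte-like cells with an interval that includes no difference.

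**Figure D1:**
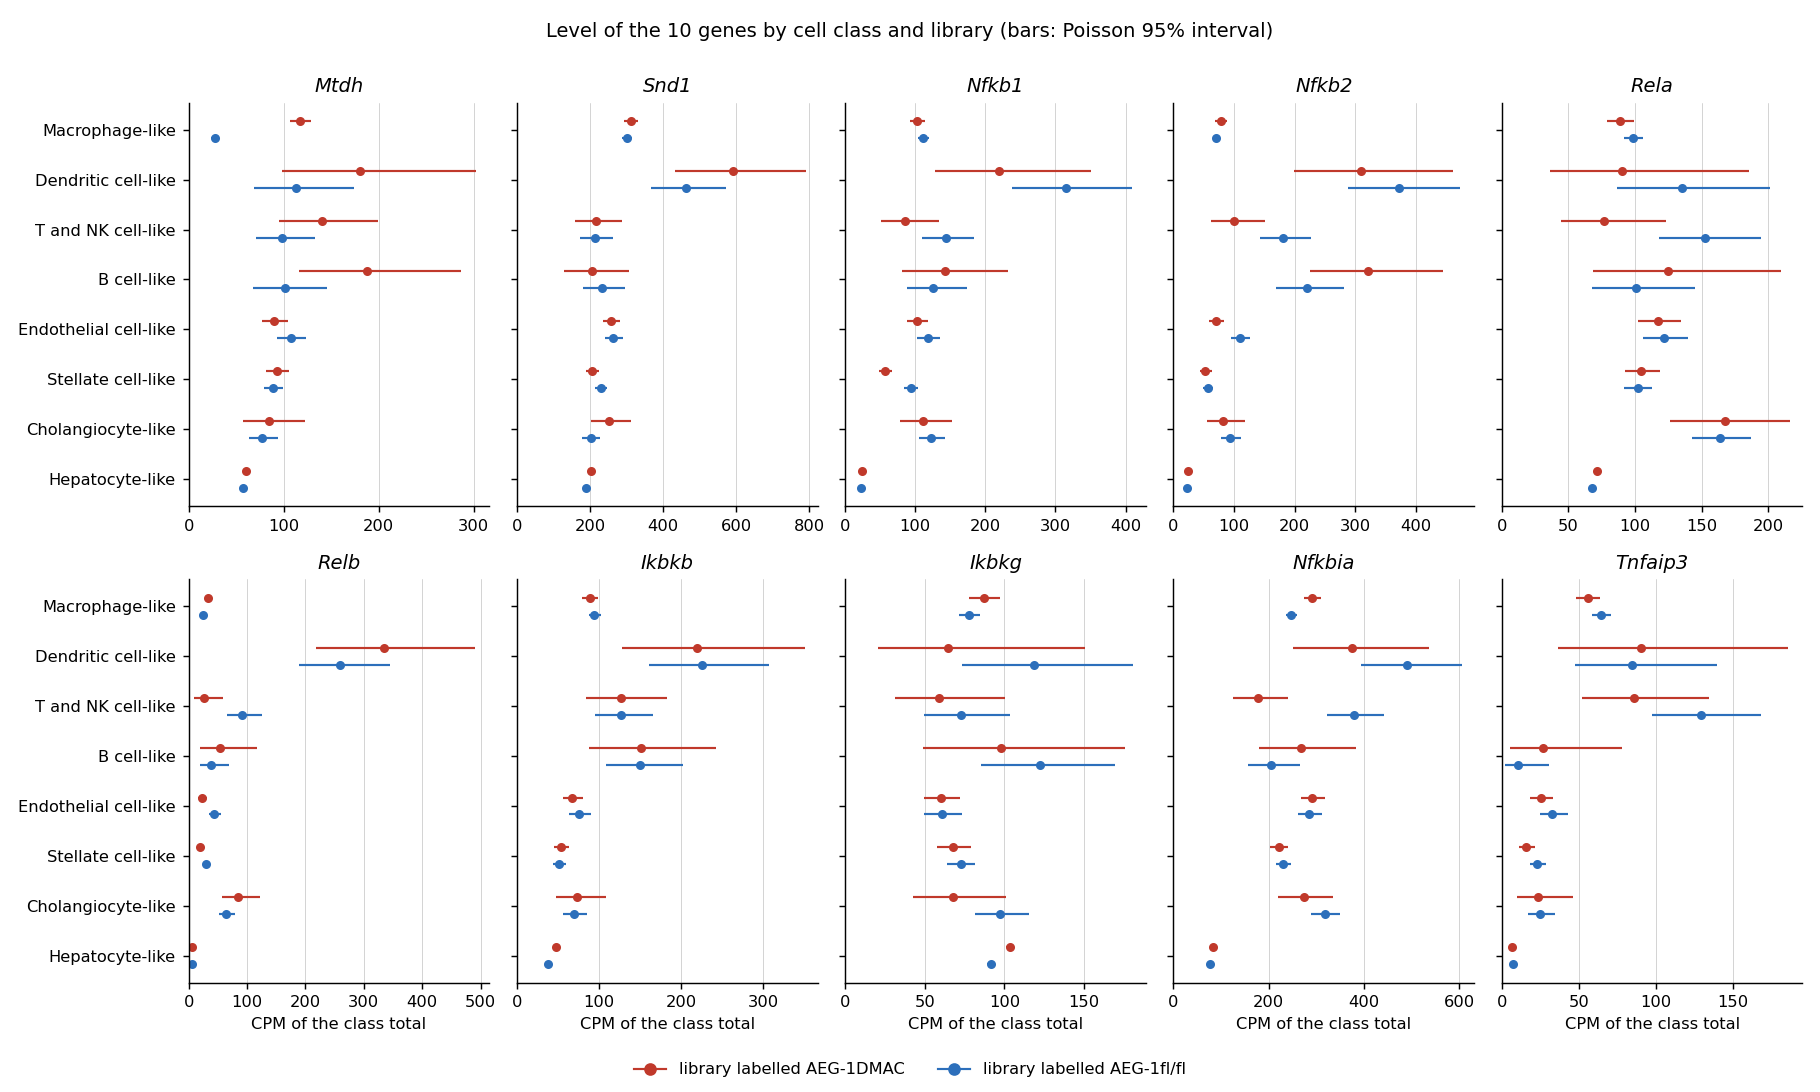
CPM of the 10 genes (x axis, 1 panel per gene, each with its own scale) in 8 cell classes (rows) of the library labelled AEG-1DMAC (red) and the library labelled AEG-1fl/fl (blue). Points are the level of the summed counts and bars the Poisson 95% interval. Mtdh in macrophage-like cells stands at 117 CPM in red and 27.3 CPM in blue, while Snd1 lies at 311 and 302 CPM there. The neutrophil-like class, with 5 and 44 cells, is not drawn.

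Mtdh was higher in the library labelled AEG-1DMAC in the 8 subsets of macrophage-like cells described and drawn here. The exception was the 2 and 9 cells with equal Kupffer and lipid-associated marker counts, which held 0 and 1 Mtdh counts. In the 277 and 529 cells with more Kupffer than lipid-associated marker counts it stood at 111 and 27.5 CPM, a log2 ratio of 2.01 (1.72 to 2.31). In the 45 and 256 cells with more lipid-associated than Kupffer marker counts it stood at 181 and 26.6 CPM, a log2 ratio of 2.77 (2.20 to 3.33). With the cells divided by total counts at 3876 and 7709 counts, the log2 ratio was 1.79, 2.45 and 2.05 from the shallowest to the deepest cells.

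The ratio moved with the amount of hepatocyte RNA. In macrophage-like cells with at most 1.36% of their counts in hepatocyte markers, Mtdh stood at 160 and 16.2 CPM, a log2 ratio of 3.30 (2.75 to 3.88). In those with more than 1.36% and at most 4.97% the log2 ratio was 2.23 (1.77 to 2.69). In those with more than 4.97% Mtdh stood at 96.8 and 35.5 CPM, a log2 ratio of 1.45 (1.08 to 1.82). Measured by its hepatocyte markers, the macrophage-like class carried 51.8% of the hepatocyte level in the library labelled AEG-1DMAC and 35.7% in the library labelled AEG-1fl/fl. At the Mtdh level of hepatocyte-like cells, that much hepatocyte RNA alone would give 31.5 and 20.4 CPM. With the hepatocyte profile subtracted in that proportion, 178 and 10.7 CPM remained.

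**Figure D2:**
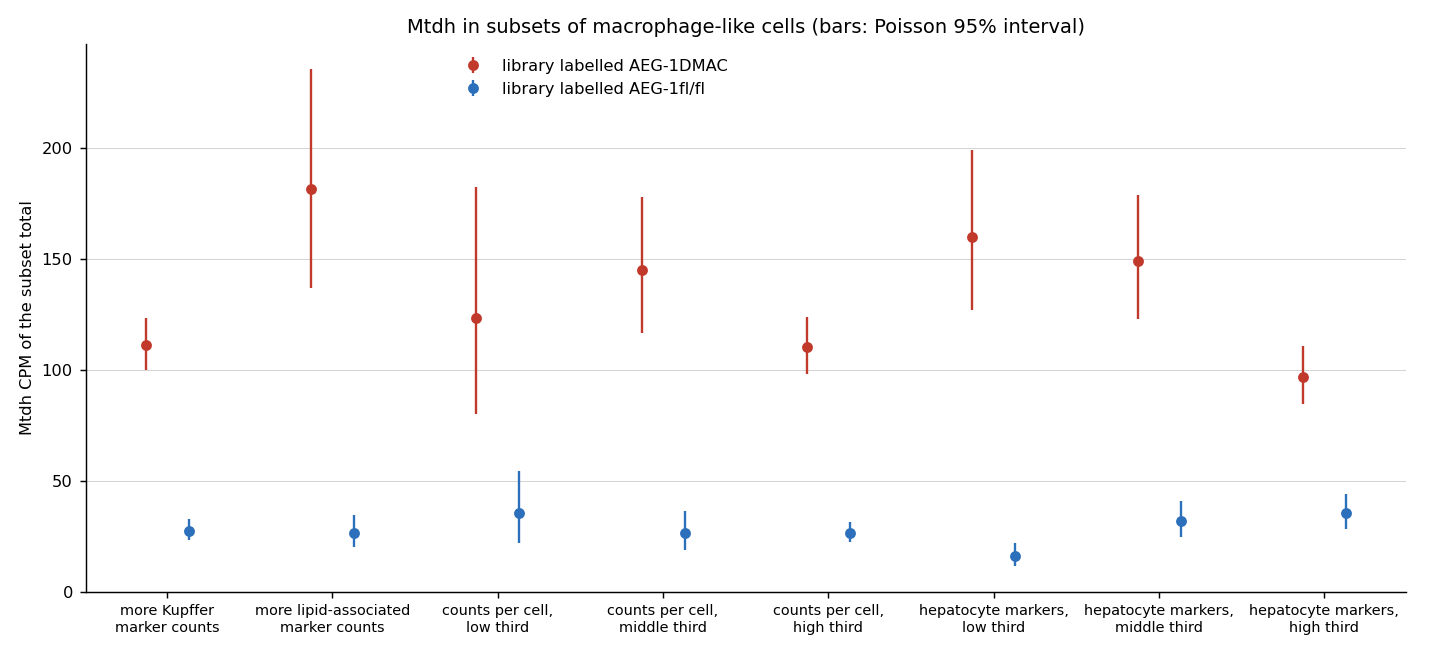
Mtdh CPM (y axis, from 0) in subsets of macrophage-like cells (x axis), by marker counts, by counts per cell and by the share of hepatocyte markers, in the library labelled AEG-1DMAC (red) and the library labelled AEG-1fl/fl (blue). Points are summed counts and bars Poisson 95% intervals. Red lies above blue in all 8 subsets, and the ratio of red to blue is largest where hepatocyte markers are lowest (160 against 16.2 CPM).

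The share of cells with an Mtdh molecule differed in the same way. With each cell thinned to 3000 counts and shallower cells left out, 26.5% of 238 macrophage-like cells had at least 1 Mtdh count in the library labelled AEG-1DMAC (Clopper-Pearson interval 20.98% to 32.6%) and 6.86% of 598 cells in the library labelled AEG-1fl/fl (4.96% to 9.19%). In endothelial cell-like cells the shares were 28.3% and 27.0%, in stellate cell-like cells 29.7% and 25.3%, and in hepatocyte-like cells 16.6% and 14.3%. Without thinning, 52.8% and 15.9% of macrophage-like cells had an Mtdh count, at median depths of 5841 and 5668.5 counts. Macrophage-like cells of the library labelled AEG-1fl/fl thus had the lowest share of the 8 values, below the hepatocyte-like cells of either library. A total of 86 and 196 macrophage-like cells were too shallow to be thinned.

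Snd1 (chromosome 6, 28475139 to 28935162, plus strand) encodes the nuclease that binds AEG-1. In macrophage-like cells it stood at 311 CPM (293 to 330, from 1097 counts) in the library labelled AEG-1DMAC and 302 CPM (289 to 315, from 2120 counts) in the library labelled AEG-1fl/fl. The intervals overlapped, and the log2 ratio was 0.05 (-0.06 to 0.15) over the whole class. Among the genes with enough counts, 35.9% had a higher ratio. The pooled ratio did not hold at like amounts of hepatocyte RNA. With the macrophage-like cells divided at 1.36% and 4.97% of their counts in hepatocyte markers, into 65 and 308, 102 and 270, and 157 and 216 cells, the Snd1 log2 ratio was 0.40 (0.19 to 0.61), 0.30 (0.10 to 0.49) and 0.15 (-0.02 to 0.33) from the least to the most hepatocyte markers. The library labelled AEG-1DMAC was thus the higher one by more than counting error in 2 of the 3 divisions. Over all genes with at least 20 summed counts the median log2 ratio in these divisions was 0.08, 0.01 and 0.05. An interval above 0 was found for 12.1%, 9.77% and 13.4% of those genes. The share of thinned macrophage-like cells with a Snd1 count was 64.3% and 57.02%, with intervals that overlapped (57.8% to 70.4% and 53.0% to 61.0%).

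Across classes Snd1 kept a similar order in both libraries. Dendritic cell-like cells were highest (593 and 462 CPM), macrophage-like cells came next, and endothelial cell-like cells followed (258 and 264 CPM), each of these 2 steps larger than counting error. Stellate cell-like cells had 206 and 230 CPM and hepatocyte-like cells 203 and 188 CPM. The log2 ratio was -0.03 in endothelial cell-like, -0.15 (-0.31 to 0.01) in stellate cell-like and 0.11 (0.07 to 0.14) in hepatocyte-like cells. In the lipid-associated subset of macrophage-like cells the Snd1 log2 ratio was 0.61 (0.36 to 0.86), against 0.02 (-0.10 to 0.14) in the Kupffer-like subset.

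Nfkb1 (chromosome 3, 135584655 to 135691547, minus strand) encodes p105, which is processed to p50. It stood at 102 CPM (91.9 to 113) in macrophage-like cells of the library labelled AEG-1DMAC and 111 CPM (103 to 119) in those of the library labelled AEG-1fl/fl, and the intervals overlapped. The log2 ratio was -0.12 (-0.30 to 0.06). Within the divisions by hepatocyte markers it was 0.29 (-0.05 to 0.62), 0.10 (-0.23 to 0.42) and 0.47 (0.12 to 0.82), so the direction turned and the last interval lay above 0. With cell classes from clustering the Nfkb1 log2 ratio was -0.58, and with the hepatocyte profile subtracted it was 0.23. Outside macrophages, Nfkb1 was lower in stellate cell-like cells of the library labelled AEG-1DMAC, at 56.9 CPM against 93.2 CPM, a log2 ratio of -0.71 (-1.01 to -0.42).

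Rela (chromosome 19, 5637483 to 5648130, plus strand) encodes p65, the subunit that AEG-1 is described to bind. It stood at 88.8 CPM (79.3 to 99.3) and 98.8 CPM (91.6 to 106) in macrophage-like cells, with overlapping intervals and a log2 ratio of -0.15 (-0.35 to 0.04). Within the divisions by hepatocyte markers the Rela log2 ratio had no common direction, at -0.51 (-1.003 to -0.05), 0.26 (-0.11 to 0.63) and 0.10 (-0.21 to 0.40). In endothelial cell-like cells it stood at 118 and 122 CPM, in stellate cell-like cells at 105 and 102 CPM and in hepatocyte-like cells at 71.9 and 68.1 CPM. Rela was lower in the library labelled AEG-1DMAC among T and NK cell-like cells, with 77.0 CPM (17 counts) against 153 CPM (65 counts), a log2 ratio of -0.99 (-1.85 to -0.20). Hepatocyte markers made up 7.43% and 4.53% of the counts of that class, and hepatocyte RNA was not corrected for there.

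Nfkb2 (chromosome 19, 46304320 to 46312385, plus strand) encodes p100. In macrophage-like cells it stood at 77.8 CPM (68.8 to 87.6) and 70.5 CPM (64.4 to 76.9), a log2 ratio of 0.14 (-0.08 to 0.36). Within the divisions by hepatocyte markers the log2 ratio was 0.57 (0.18 to 0.95), 0.45 (0.03 to 0.86) and 0.54 (0.13 to 0.94), and the 3 intervals lay above 0. It was 0.13 (-0.12 to 0.38) in the Kupffer-like and 0.76 (0.24 to 1.25) in the lipid-associated subset. Endothelial cell-like cells differed in the other direction, with 70.9 CPM in the library labelled AEG-1DMAC and 109 CPM in the library labelled AEG-1fl/fl, a log2 ratio of -0.62 (-0.96 to -0.30). With the hepatocyte profile subtracted, these levels were 121 and 155 CPM.

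Relb (chromosome 7, 19606217 to 19629438, minus strand) encodes the partner of p52. It stood at 33.2 CPM (27.5 to 39.8, from 117 counts) and 25.5 CPM (21.9 to 29.5, from 179 counts) in macrophage-like cells. The log2 ratio of 0.38 (0.03 to 0.73) was the highest of the NF-kB genes on the list, and 14.6% of all genes with enough counts had a higher one. An interval above 0 was found for 15.1% of all genes with enough counts. Within the divisions by hepatocyte markers the Relb log2 ratio was 0.71 (0.04 to 1.33), 0.72 (0.06 to 1.36) and 0.71 (0.08 to 1.36), again with intervals above 0. It was 0.64 (0.22 to 1.05) in the Kupffer-like and 0.57 (-0.25 to 1.32) in the lipid-associated subset. In endothelial cell-like cells Relb was lower in the library labelled AEG-1DMAC, at 23.1 against 43.9 CPM, and in stellate cell-like cells at 19.1 against 29.4 CPM. The log2 ratios were -0.93 (-1.502 to -0.37) and -0.62 (-1.15 to -0.12). With the hepatocyte profile subtracted, Relb in endothelial cell-like cells stood at 41.6 and 63.9 CPM. Among T and NK cell-like cells, 6 counts against 39 gave 27.2 and 91.7 CPM, not corrected for hepatocyte RNA. The log2 ratio of Relb in macrophage-like cells exceeded that in endothelial cell-like cells by 1.31 (0.67 to 1.95).

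Ikbkb (chromosome 8, 22659212 to 22706589, minus strand) encodes the catalytic kinase IKK beta, and Ikbkg (chromosome X, 74393290 to 74453854, plus strand) the regulatory subunit NEMO. In macrophage-like cells Ikbkb stood at 88.8 CPM (79.3 to 99.3) and 94.5 CPM (87.5 to 102), a log2 ratio of -0.09 (-0.29 to 0.11). Ikbkg stood at 87.1 CPM (77.7 to 97.5) and 77.7 CPM (71.3 to 84.5), a log2 ratio of 0.17 (-0.04 to 0.37). Within the divisions by hepatocyte markers the intervals of both genes included 0. Neither gene differed beyond counting error over the whole macrophage-like class or in endothelial cell-like or stellate cell-like cells. In the Kupffer-like and lipid-associated subsets of macrophage-like cells the Ikbkb log2 ratio was -0.13 (-0.36 to 0.09) and 0.70 (0.25 to 1.13). That of Ikbkg was 0.24 (0.02 to 0.47) and -0.44 (-1.20 to 0.25). In hepatocyte-like cells, where depth was greatest, Ikbkb stood at 48.2 and 38.2 CPM and Ikbkg at 103 and 91.7 CPM. Their log2 ratios were 0.34 (0.26 to 0.42) and 0.17 (0.12 to 0.23), higher in the library labelled AEG-1DMAC.

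Nfkbia (chromosome 12, 55489410 to 55492647, minus strand) encodes IkB alpha, the inhibitor whose promoter window is printed above. It stood at 291 CPM (273 to 309, from 1025 counts) in macrophage-like cells of the library labelled AEG-1DMAC and 248 CPM (236 to 259, from 1739 counts) in those of the library labelled AEG-1fl/fl. The intervals did not overlap, but the log2 ratio of 0.23 (0.12 to 0.35) was small beside that of Mtdh, and 21.6% of genes with enough counts had a higher one. Within the divisions by hepatocyte markers it was 0.52 (0.30 to 0.73), 0.73 (0.53 to 0.93) and 0.36 (0.16 to 0.56), with the 3 intervals above 0. It was 0.18 (0.05 to 0.30) in the Kupffer-like and 0.56 (0.24 to 0.87) in the lipid-associated subset. With cell classes from clustering the Nfkbia log2 ratio was -0.08. In endothelial cell-like cells the levels were 292 and 285 CPM and in stellate cell-like cells 221 and 230 CPM. T and NK cell-like cells differed most, at 177 CPM (39 counts) against 379 CPM (161 counts), a log2 ratio of -1.10 (-1.64 to -0.59). These T and NK values were not corrected for hepatocyte RNA.

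Tnfaip3 (chromosome 10, 19000910 to 19015657, minus strand) encodes A20, which removes activating ubiquitin chains upstream of the IkB kinases. It stood at 55.6 CPM (48.1 to 63.995) and 64.6 CPM (58.8 to 70.8) in macrophage-like cells, a log2 ratio of -0.22 (-0.46 to 0.03). The sign of this ratio changed with the cells compared. It was -0.35 (-0.63 to -0.07) in the Kupffer-like and 0.77 (0.19 to 1.32) in the lipid-associated subset. In the divisions by hepatocyte markers it was 0.09, 0.31 and 0.02 with intervals that included 0. It was 0.22 in cells thinned to equal depth, 0.17 with the hepatocyte profile subtracted and -0.58 with cell classes from clustering. Hepatocyte-like cells had 6.84 and 7.63 CPM of Tnfaip3 and stellate cell-like cells 15.8 and 23.2 CPM.

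Read as a group in macrophage-like cells, 1 of the 10 genes, Mtdh, was past a 2-fold difference in either direction, where 6.14% of the 11650 genes with enough counts were. The other 9 had log2 ratios between -0.22 and 0.38, and the median over all genes with enough counts was -0.10. These 9 ratios are of the pooled class, and those of Snd1, Nfkb1, Nfkb2, Relb, Ikbkb, Nfkbia and Tnfaip3 were higher in each of the divisions by hepatocyte markers. The median over all genes with enough counts was also higher in each division, at 0.08, 0.01 and 0.05. In the Kupffer-like and lipid-associated subsets the intervals of Nfkb1 and Rela included 0. In the lipid-associated subset those of Snd1, Nfkb2, Ikbkb, Nfkbia and Tnfaip3 lay above 0, as did 8.43% of all genes with enough counts. In the Kupffer-like subset those of Relb, Ikbkg and Nfkbia lay above 0 (13.5% of all genes) and that of Tnfaip3 below 0 (20.7%). Of the 10 genes, none was past 2-fold in endothelial cell-like cells (6.98% of all genes with enough counts), in stellate cell-like cells (6.42%) or in hepatocyte-like cells (4.80%).

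**Figure D3:**
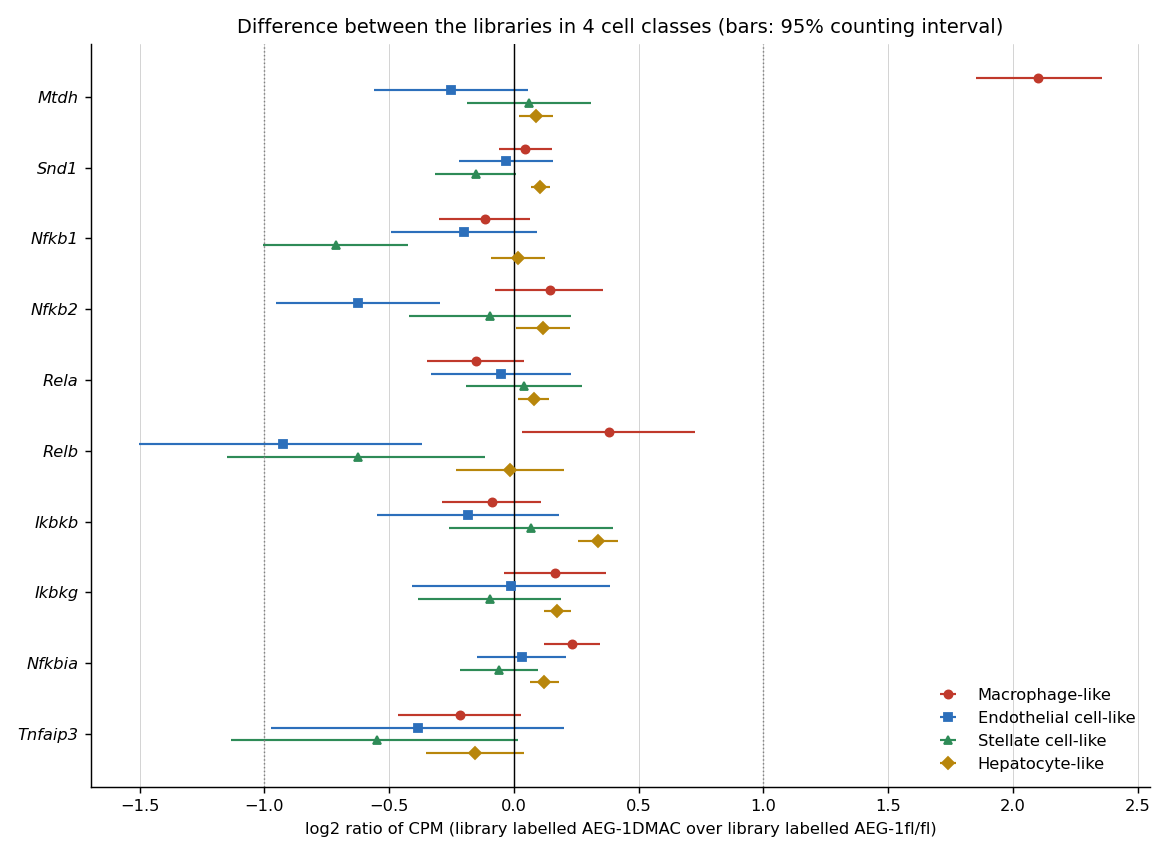
Log2 ratio of CPM (x axis, library labelled AEG-1DMAC over library labelled AEG-1fl/fl) of the 10 genes (rows) in macrophage-like (red circles), endothelial cell-like (blue squares), stellate cell-like (green triangles) and hepatocyte-like cells (yellow diamonds). Bars are 95% counting intervals and dotted lines mark 2-fold. Mtdh in macrophage-like cells, at 2.10, is the 1 point past 2-fold.

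Macrophage-like cells were also compared with the pooled T and NK, B, endothelial, stellate and cholangiocyte-like cells of the same library. Dendritic cell-like, neutrophil-like and hepatocyte-like cells were not among these others. The comparison sets aside a difference that all classes of a library share. By that measure Mtdh was 117 against 95.5 CPM in the library labelled AEG-1DMAC, a log2 ratio of 0.30 (0.10 to 0.49) of macrophage-like over other cells. In the library labelled AEG-1fl/fl it was 27.3 against 92.1 CPM, a log2 ratio of -1.75 (-1.99 to -1.52). The difference between these ratios was 2.05 (1.75 to 2.35).

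Snd1 had the same position in both libraries by that measure, with macrophage-like cells above the others by a log2 ratio of 0.44 and 0.38, a difference of 0.06 (-0.09 to 0.21). Rela was below the others in both (-0.35 and -0.29), Ikbkb above in both (0.44 and 0.46) and Tnfaip3 well above in both (1.26 and 1.05). The intervals of the difference between the libraries include 0 for each of these 3 genes.

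A further 5 genes had a higher ratio of macrophage-like over other cells in the library labelled AEG-1DMAC. The difference was 1.10 (0.65 to 1.54) for Relb, 0.49 (0.21 to 0.78) for Nfkb2, 0.39 (0.11 to 0.67) for Ikbkg, 0.33 (0.17 to 0.48) for Nfkbia and 0.31 (0.06 to 0.55) for Nfkb1. For Relb, Nfkb2 and Ikbkg more of it lay outside the macrophage-like cells than in them, and for Nfkb1 all of it did. Relb in the other classes was 26.2 CPM in the library labelled AEG-1DMAC and 43.1 CPM in the library labelled AEG-1fl/fl, and Nfkb2 69.6 and 88.8 CPM. Ikbkg stood there at 65.2 and 76.2 CPM and Nfkb1 at 80.9 and 108 CPM. In macrophage-like cells Nfkb1 went the other way, at 102 and 111 CPM. The classes were pooled by their counts, and their proportions differed between the libraries. The share of all genes with an interval of the difference above 0 was not computed. Hepatocyte RNA was not corrected for in this comparison. With the hepatocyte profile subtracted, Nfkb1 in endothelial cell-like cells stood at 188 CPM in the library labelled AEG-1DMAC and 168 CPM in the library labelled AEG-1fl/fl.

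**Figure D4:**
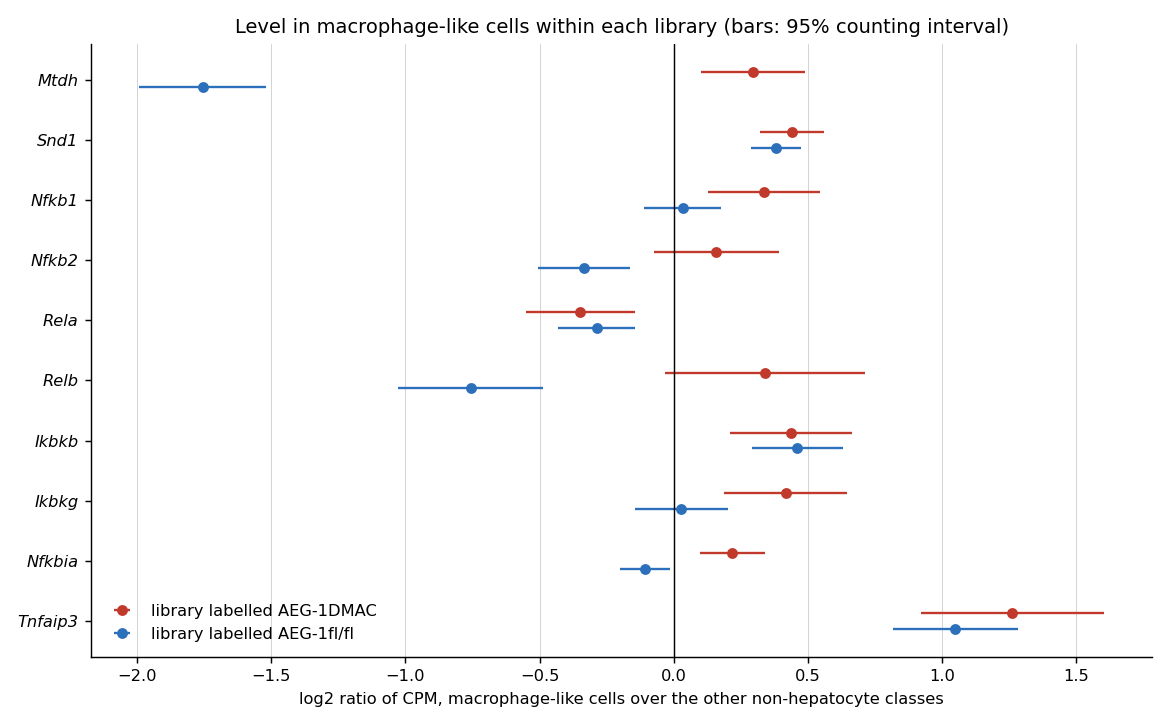
Log2 ratio of CPM in macrophage-like cells over the other non-hepatocyte classes of the same library (x axis) for the 10 genes (rows), in the library labelled AEG-1DMAC (red) and the library labelled AEG-1fl/fl (blue). Dendritic cell-like and neutrophil-like cells are left out of the other classes. Bars are 95% counting intervals. Mtdh lies at 0.30 in red and -1.75 in blue, and Snd1 at 0.44 and 0.38.

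The wider pathway was described with lists of 62 genes in 6 roles, of which 59 had at least 20 summed counts in macrophage-like cells. Of these 59, 4 were past 2-fold (6.78%), against 6.14% of all genes with enough counts. Ptgs2 was the 1 gene higher in the library labelled AEG-1DMAC (2.54% of all genes were), and Ticam1, Cxcl1 and Vcam1 were lower (3.60% of all genes were). The median log2 ratio was -0.11, beside -0.10 over all genes, with 25 genes above 0 and 34 below.

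The 5 subunit genes, with Rel added to the 4 above, had a median of -0.12 and ranged from -0.29 (Rel) to 0.38 (Relb). Rel, which encodes c-Rel and is used mainly by lymphoid and myeloid cells, stood at 62.7 and 76.6 CPM, a log2 ratio of -0.29 (-0.52 to -0.06). Its log2 ratio was -0.32 (-0.59 to -0.05) in the Kupffer-like and 0.61 (0.12 to 1.08) in the lipid-associated subset. The 10 IkB kinases and their activators had a median of -0.08, the 6 IkB inhibitors 0.17 and the 8 feedback genes 0.13, and none of these 24 genes was past 2-fold. The 17 receptors and adaptors had a median of -0.25, with 12 below 0. The interval lay below 0 for 10 of the 17 (58.8%), against 24.2% of all genes with enough counts. These shares are of the pooled class, and the 17 were not compared within the divisions by hepatocyte markers. In those divisions 6.68%, 8.22% and 9.07% of all genes with enough counts had an interval below 0. Among the 17, Ticam1, the adaptor of TLR3 and TLR4, stood at 11.9 and 25.8 CPM, a log2 ratio of -1.11 (-1.63 to -0.62). The AEG-1 partners other than NF-kB, 6 genes with Snd1 among them, had a median of 0.02 and ranged from -0.11 to 0.44.

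**Figure D5:**
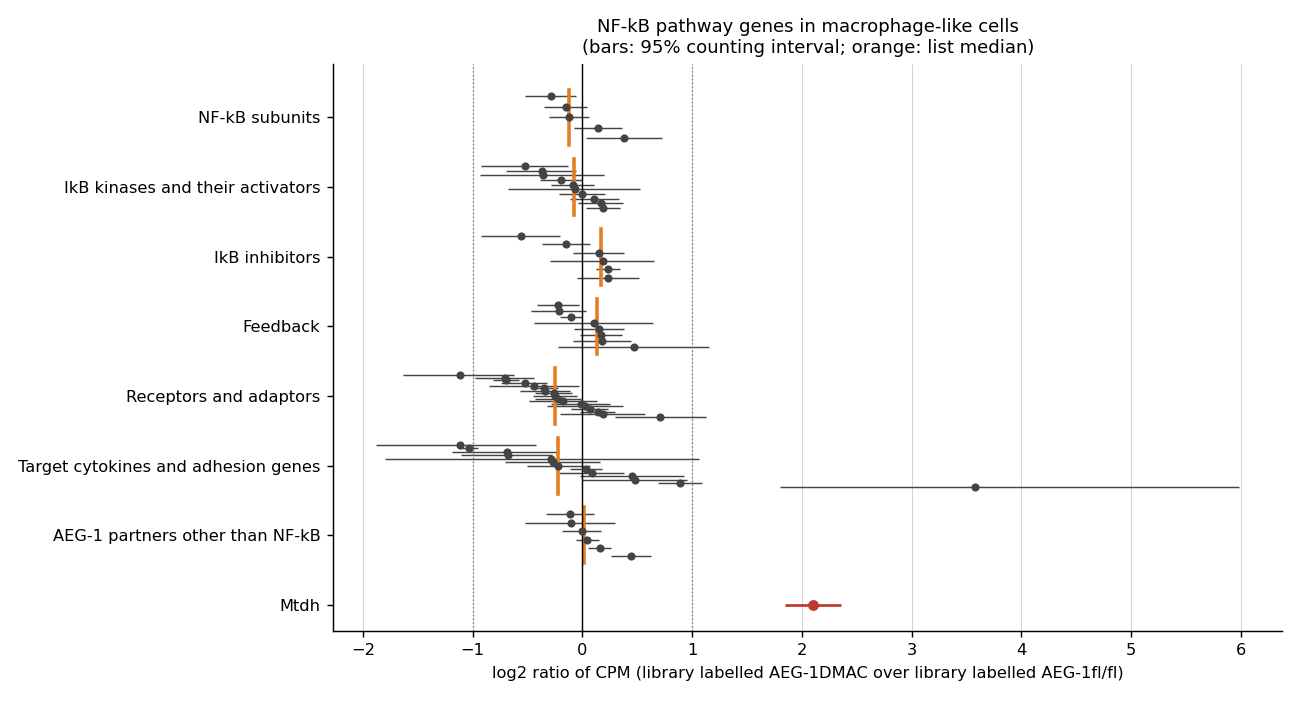
Log2 ratio of CPM in macrophage-like cells (x axis, library labelled AEG-1DMAC over library labelled AEG-1fl/fl) for the pathway genes with at least 20 summed counts, by role (rows), with Mtdh in the last row. Points are genes, bars 95% counting intervals, orange lines list medians and dotted lines 2-fold. The 4 list genes past 2-fold are Ptgs2, at 3.58, and Ticam1, Cxcl1 and Vcam1, between -1.12 and -1.03.

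Genes that NF-kB is known to induce went both ways in macrophage-like cells. Of 16 on the list 13 had enough counts, with a median of -0.22, and 3 of them were past 2-fold (23.1%, against 6.14% of all genes). Vcam1, an adhesion molecule for leukocytes, stood at 404 CPM in the library labelled AEG-1DMAC and 827 CPM in the library labelled AEG-1fl/fl, a log2 ratio of -1.03 (-1.12 to -0.95). Cxcl1, a neutrophil chemokine, stood at 5.96 and 12.95 CPM, a log2 ratio of -1.12 (-1.88 to -0.42). Ptgs2, the inducible cyclooxygenase, had 18 and 3 counts, a log2 ratio of 3.58 (1.80 to 5.99), and all of them came from the cells with more lipid-associated marker counts.

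The cytokines named in any case did not share a direction. Il1b, the interleukin-1 beta gene, stood at 110 and 59.6 CPM, a log2 ratio of 0.89 (0.69 to 1.09). Tnf stood at 13.6 and 21.9 CPM, a log2 ratio of -0.69 (-1.18 to -0.21), and Ccl2, a monocyte chemokine, at 18.7 and 13.7 CPM, a log2 ratio of 0.46 (-0.02 to 0.92). The Tnf difference was not seen within the Kupffer-like cells, where its level was 12.1 and 11.1 CPM, a log2 ratio of 0.13 (-0.51 to 0.74), and its level within the lipid-associated cells was 29.1 and 47.9 CPM, a log2 ratio of -0.72 (-1.89 to 0.26). Il1b stayed higher in the library labelled AEG-1DMAC in both, by 0.66 and 2.25 on the log2 scale, and Vcam1 lower in both, at -1.25 and -1.07.

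Within a library the macrophage-like cells could also be divided by whether an Mtdh count was seen after thinning to 3000 counts. In the library labelled AEG-1DMAC the 63 cells with Mtdh and the 175 without had Snd1 at 391.5 and 324 CPM, a log2 ratio of 0.27 (-0.14 to 0.68). The intervals of Ikbkb (0.88, 0.22 to 1.52) and Ikbkg (0.87, 0.11 to 1.61) lay above 0, and those of the other 6 NF-kB members included 0. The interval of Rel, which is not a member, also lay above 0 (0.80, 0.09 to 1.48). The share of all genes with an interval above 0 was not computed for this split. Cells with Mtdh also had less Alb, at 24011 against 35573 CPM, and more Gpnmb, at 778 against 522 CPM, whose part in these values was not tested. In the library labelled AEG-1fl/fl, with 41 cells with Mtdh and 557 without, the intervals of all 9 genes and of Rel included 0, and Snd1 stood at 285 and 342 CPM. There the cells with Mtdh had more Alb, at 27764 against 19798 CPM, and less Gpnmb, at 1553 against 1840 CPM. The counts of the 9 genes and of Rel were 77 or fewer per gene in the cells with Mtdh, so they were a weak basis for any relation.

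The genes whose levels were most like those of Mtdh over the 18 profiles of class and library were Gbf1, Tfam, Cspp1, Cldnd1 and Dars, with Pearson correlations of log2(CPM + 5) of 0.92 to 0.94 across 9611 genes. The profiles share their 2 libraries and their hepatocyte RNA, and the small neutrophil-like profiles carry much of the range. None of these 5 genes had the Mtdh difference in macrophage-like cells, where their log2 ratios were 0.07 to 0.37. Among the members Ikbkb had the highest correlation with Mtdh (0.86, place 215), then Nfkb2 (0.74), Tnfaip3 (0.58) and Snd1 (0.57, place 2431). Relb, Nfkb1 and Ikbkg lay between 0.10 and 0.17, and Rela and Nfkbia at -0.04 and -0.08.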

How the data were processed

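Single-cell gene expression was measured in 1 liver library per genotype. The authors deposited raw counts of molecules per gene and cell, with no normalization, made from the mouse probe kit for fixed RNA. The submitters' processing notes and the file headers name Cell Ranger 7.1.0 and the mm10 build. No pooling of replicates or barcode-calling rule is given in the sources used here. The 2 libraries hold 2581 and 3535 cells and 79589511 and 90440089 counts.

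The cell filter followed the study (100 or more genes, mitochondrial share of 10% or less). A cell entered a class with at least 5 counts of at least 3 of its markers and a marker level, per 10000 counts, of at least 64 (macrophage), 16 (dendritic), 32 (neutrophil, B, endothelial, stellate) or 8 (T and NK, cholangiocyte). Cells below 0.5 of every such limit with at least 600 hepatocyte marker counts per 10000 were hepatocyte-like. These limits were set after the marker values were seen. No doublet caller was run, but cells that passed a second gate at over 0.5 of the first, each relative to its limit (57 and 100) were left out, as were the 523 and 562 cells in no gate. Counts were summed per class and library and divided by the class total (CPM), with exact Poisson intervals. Log2 ratios have Clopper-Pearson intervals of the 2 counts given their sum, and differences of 2 log2 ratios normal intervals from the counts. A count of 0 was taken to allow 3 counts. Genes entered counts of differences with at least 20 summed counts, and 2-fold stood in for a call. The ratio step was tested on simulated data. Intervals cover counting error only.

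The members and gene lists were chosen with earlier results of these data known. Named besides the 10 members are list genes with at least 20 summed counts, at least 2-fold and an interval excluding 0 in macrophage-like cells, with Tnf, Il1b, Ccl2 and Rel in any case, and the 5 genes most correlated with Mtdh among those reaching 50 CPM in a profile. Alternatives were other gates, clusters, cell filters, weights, depths and hepatocyte corrections. Clusters came from Scanpy 1.11.5 (2000 variable genes, 50 principal components, the lowest resolution with at least 14 clusters). Python 3.11.15, NumPy 2.4.6, SciPy 1.17.1, pandas 2.3.3 and matplotlib 3.10.9 were used. Promoter windows are from RefSeq (GRCm38.p6) and gene positions from GENCODE M21.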

Additional observations from a re-analysis of the deposited data

How the results depend on the processing

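The Mtdh log2 ratio in macrophage-like cells stayed above 0 under all 11 alternatives, from 0.97 to 4.05, and under 7 of them stayed within its counting interval. It was 0.97 with cell types from clustering, 4.05 with the hepatocyte profile subtracted, 2.77 in lipid-associated-like cells only and 2.48 in the macrophage-like cluster with the highest marker score only, an alternative chosen after seeing the data. The value of 0.97 joins that cluster (137 and 24.5 CPM of Mtdh, 4.79% and 3.03% hepatocyte marker counts) with a second (66.6 and 53.1 CPM, 11.8% and 10.3%), in which 111 of 360 and 240 of 432 cells passed the macrophage gate. Under the same 4 alternatives Snd1 had -0.23, 0.23, 0.61 and 0.19. The number of pathway genes past 2-fold, 4, was 11 of 57 (19.3%, against 11.1% of all genes) in lipid-associated-like cells only and 2 in the cluster with the highest score, and otherwise 3 to 5. For the other 8 members, 69 of 88 alternative values lay within the counting interval and all 88 were below 2-fold, from -0.58 to 0.78. Of 80 member levels, 19 moved past 1.5-fold with clustering, and of 60 levels 26 did with the hepatocyte profile subtracted, where the cause was not tested.

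No paired analysis was possible because each genotype has 1 library, so the groups share 1 replicate number. For the same reason no library was left out. The genotype cannot be told apart from the animal, the library preparation and the depth, and no probe positions were used here.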
